A study of Mus musculus with 33 samples.

Results

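CD127-/lo Tregs were compared with CD4+Foxp3- cells of the same organ, the spleen of tolerant mice, over every gene counted. The comparison used 6 of the 33 bulk RNA-Seq libraries of the series, taken by their titles, of which 3 held CD127-/lo Tregs and 3 held CD4+GFP- cells. All 6 came from male DEREG mice, which carry a diphtheria toxin receptor fused to EGFP under the Foxp3 promoter, so that sorting on GFP separates Foxp3-expressing cells from the rest. These mice had received 4000 IEQ of porcine neonatal islet cell clusters (NICC) under the renal capsule. MR-1, an antibody against CD154, was injected at 500 µg a dose over the following week, together with 1 dose of 500 µg CTLA4-Fc, and cells were taken at day 100. CD127-/lo Tregs were sorted as CD4+GFP+ cells with low or absent CD127, and the CD4+Foxp3- cells as CD4+GFP- cells with no gate on CD127 or CD3. Toxin was not part of the treatment given in the labels of these libraries. Naive DEREG mice without a graft gave 3 libraries of Tregs, sorted on CD4 and GFP without CD127, and 3 of CD4+Foxp3- cells, which are used below as a second comparison.

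Foxp3+ Tregs are CD4+ T cells that restrain other lymphocytes and maintain self-tolerance. They depend on IL-2, which they take up through a receptor that contains CD25 (Il2ra), and they carry the inhibitory receptor CTLA-4, which withdraws costimulation from antigen-presenting cells. CD127 is the IL-7 receptor alpha chain (Il7r), which resting conventional T cells use for survival and which most Tregs carry at a low level.

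The genes that mark or separate the cells are shown first by the sequence before their start. RefSeq on GRCm38.p6 gives the 250 bases upstream of each start, written 5′ to 3′ on the strand of the gene. Capitals mark matches, on either strand, to a STAT site written TTCNNNGAA or a forkhead site written TGTTTNC, the motifs of the factors that act below the IL-2 and IL-7 receptors and of the family that includes Foxp3. Foxp3 has more than 1 listed start, and the window shown, at chrX:7580233-7580482, held both motifs in overlap. The forkhead match was 143 and the STAT match 139 bases before the start. The window of the other start, at chrX:7579426-7579675, held neither. The window of Il7r, at chr15:9529877-9530126 on the minus strand, held a STAT match 142 bases before the start. Neither motif was in the windows of Il2ra (chr2:11642542-11642791) and Ctla4 (chr1:60908775-60909024).
Foxp3: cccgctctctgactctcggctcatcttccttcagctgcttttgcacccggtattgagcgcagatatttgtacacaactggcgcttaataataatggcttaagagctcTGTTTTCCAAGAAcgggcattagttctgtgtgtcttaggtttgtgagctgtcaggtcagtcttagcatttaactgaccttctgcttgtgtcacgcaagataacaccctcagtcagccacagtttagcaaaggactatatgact
Il7r: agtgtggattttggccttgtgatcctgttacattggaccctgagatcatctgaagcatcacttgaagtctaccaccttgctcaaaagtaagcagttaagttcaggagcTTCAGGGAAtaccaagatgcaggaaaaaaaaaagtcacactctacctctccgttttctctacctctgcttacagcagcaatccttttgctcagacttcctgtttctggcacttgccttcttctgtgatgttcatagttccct
Il2ra: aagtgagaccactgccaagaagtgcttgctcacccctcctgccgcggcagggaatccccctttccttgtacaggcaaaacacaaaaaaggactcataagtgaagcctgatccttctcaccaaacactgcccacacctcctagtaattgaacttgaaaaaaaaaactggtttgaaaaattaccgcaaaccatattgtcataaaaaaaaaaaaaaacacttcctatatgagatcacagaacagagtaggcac
Ctla4: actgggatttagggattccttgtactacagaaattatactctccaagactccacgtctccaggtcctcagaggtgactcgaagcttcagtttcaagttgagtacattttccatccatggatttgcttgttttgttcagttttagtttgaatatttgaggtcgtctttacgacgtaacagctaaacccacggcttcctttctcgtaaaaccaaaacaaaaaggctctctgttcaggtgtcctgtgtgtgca
Among all 32851 windows of this length, 7.02% held the STAT letters and 17.8% the forkhead letters. Of the 72 genes called below, 47 were matched by symbol, some with several starts and so several windows. The STAT letters were in 2 of 30 windows of genes higher in Tregs, those of Tnfrsf9 and Foxp3, and in 3 of 34 windows of genes lower in Tregs, those of Bcl11a, Gm19951 and Il7r. The forkhead letters were in 10 of 30 and 5 of 34 windows. A match is a description of letters and not of binding.

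The 2 groups were of similar depth. Between 3660330 and 4181135 read pairs were counted on genes in the Treg libraries and between 3776645 and 4602521 in the CD4+Foxp3- libraries, against 844039 to 4615283 over the 33. Levels are given as CPM, counts scaled to a common effective library total, and a count of 3, the most that a count of 0 allows, was 0.684 to 0.879 CPM. These limits cover counting error only, since amplified reads without molecular tags are not independent molecules. Replicates of a group correlated at 0.920 to 0.949 over genes on the log2 scale. Treg replicate 1 stood apart in its composition. It had 13.2% of its reads outside genes, against 23.4% to 32.6% in the other 5, and 4.35% of its counts on mitochondrial genes, against 2.06% to 3.18%. Its share of reads mapped to several places was 14.1%, against 7.83% to 10.3%, and its TMM factor, which scales for library composition, was the lowest of the 6, at 0.847 against 0.932 to 1.06. Each library is described as pooled from several mice, and the labels do not tie libraries to mice. The p-values therefore measure a spread between libraries, estimated in 1 fit of all 33, and not the spread between mice. In bulk RNA, fewer cells that express a gene and less RNA of it in each cell cannot be told apart.

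The genes of the gate followed the labels. Foxp3, the lineage factor of Tregs (chrX:7573644-7595245, plus strand), was at 394, 342 and 323 CPM in the CD127-/lo Tregs and at 0.456, 1.5 and 5.15 CPM in the CD4+Foxp3- cells. The log2 fold change of Tregs over CD4+Foxp3- cells was 7.21 ± 0.73 (SE, n = 3 and 3, adjusted p = 1.47e-15 from edgeR's quasi-likelihood F test, Benjamini-Hochberg adjusted over all genes tested, as for every adjusted p here). EGFP was at 96.6, 67.7 and 48.7 CPM in the Tregs and without a count in any CD4+Foxp3- library, which makes it at least 96.6-fold higher. Il7r was at 270, 303 and 360 CPM in the CD127-/lo Tregs and at 1350, 876 and 1105 CPM in the CD4+Foxp3- cells, a log2 fold change of -1.84 ± 0.37 (adjusted p = 0.000836). The CD127hi Tregs of tolerant spleen had 1236, 1082 and 1198 CPM of Il7r, inside the range of the CD4+Foxp3- cells. These 3 genes were used to sort the cells, Il7r only on the Treg side, and their differences are a check. Cd4, on which both were sorted, was at 124, 115 and 178 CPM in Tregs and 240, 220 and 253 CPM in CD4+Foxp3- cells, without overlap, and its log2 fold change of -0.77 ± 0.65 did not pass the test (adjusted p = 0.885).

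Over 25347 genes tested, 72 were called at an adjusted p under 0.05, which is 0.284%. Of these, 43 were higher in CD127-/lo Tregs (0.170% of the genes tested) and 29 were lower (0.114%). An unadjusted p under 0.05 was found for 1825 genes, 889 of them higher, and the median log2 fold change of all genes was 0.00. The groups did not overlap in 64 of the 72 called genes, while this held for 11.3% of all genes tested. The 8 called genes with overlap were Wfdc17, Hbb-bs, Jchain, Lyz2, mt-Cytb, Malat1, Blnk and Gm19951, and most of these were carried by 1 or 2 libraries. Of the calls, 8 higher genes had no count in any CD4+Foxp3- library and 8 lower genes none in any Treg library. For 5 called genes, the difference was under 1 on the log2 scale. Dropping 1 of the 6 libraries at a time ended between 15 and 23 of the 72 calls, and 35 genes were called every time. The count also moved with the test and filter. It was 38 by the likelihood ratio test, which the study used, and 28 with a filter of 10 counts in 3 libraries. DESeq2 called 222 and a fit of the 6 libraries alone 342. These 4 fits kept 31, 26, 51 and 57 of the 72, in that order. Both the likelihood ratio test and DESeq2 called 28 of the 72. Outside these 28 were Tnfrsf4, Il2rb, Tnfrsf9, Maf, Hif1a, Birc5, Il7r, Satb1, Id2, Lck, H2-Aa, H2-Eb1, Ighm, Igkc and Cd79b.

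**Figure D1:**
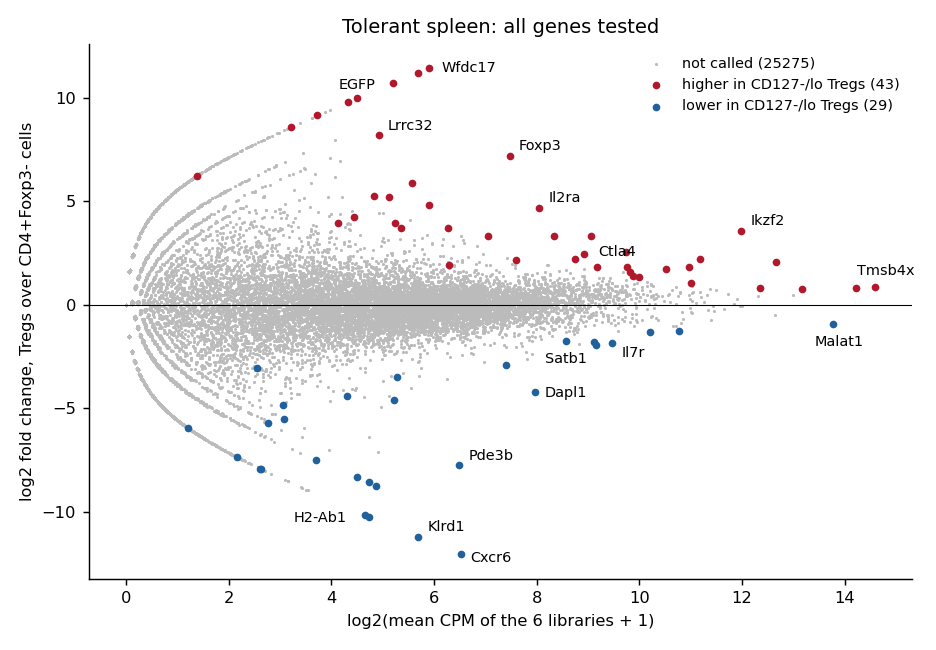
Each point is 1 of the 25347 genes tested, with log2 of its mean CPM over the 6 libraries plus 1 on the x axis and the log2 fold change of CD127-/lo Tregs over CD4+Foxp3- cells on the y axis. Red points are the 43 genes called higher in Tregs and blue points the 29 called lower. Curved rows of points at the left are genes with counts in few libraries.

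Genes of Treg identity held 7 calls. Of 18 listed genes, 7 were called higher, the sorted Foxp3 among them, 11 were not called, and all 18 had a log2 fold change above 0, with a median of 2.65. Il2ra, CD25, was at 528, 390 and 609 CPM in Tregs and 18.9, 23.7 and 16.2 CPM in CD4+Foxp3- cells. Every Treg library lay far above every CD4+Foxp3- library, and the log2 fold change was 4.70 ± 0.60 (adjusted p = 4.66e-10). Ikzf2, which encodes the transcription factor Helios, had the smallest adjusted p of all genes, at 4073, 8041 and 10457 CPM against 475, 685 and 736 CPM (log2 fold change 3.57 ± 0.24, adjusted p = 1.56e-31). Ctla4 was at 1115, 846 and 937 CPM in Tregs. In CD4+Foxp3- cells it held a narrow range of 96.9, 98.7 and 93.7 CPM (log2 fold change 3.32 ± 0.52, adjusted p = 2.23e-06).

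Lrrc32 encodes GARP, which tethers latent TGF-beta to the surface of activated Tregs. Its level was 59.9, 36.5 and 78.6 CPM in Tregs, and 1 CD4+Foxp3- library held the only counts of that group, at 0.456 CPM. The ratio of summed counts was 351, with an exact interval from 96.9 to 2908, and the adjusted p was 0.000212. Tnfrsf4, the costimulatory receptor OX40, was at 2166, 990 and 1246 CPM against 250, 316 and 191 CPM (log2 fold change 2.54 ± 0.43, adjusted p = 1.39e-05). Itgae, the integrin CD103 that binds E-cadherin, was at 22.6, 69.7 and 25.5 CPM against 0.912, 2.74 and 2.58 CPM (adjusted p = 0.0110). It was the weakest call of the list, and leaving out CD4+Foxp3- replicate 1, 2 or 3 or Treg replicate 2 ended it. Other listed genes did not pass the test although their groups did not overlap. Izumo1r, a folate receptor family member of Tregs, had 626 to 916 CPM in Tregs and 157 to 335 CPM in CD4+Foxp3- cells (adjusted p = 0.133). Tnfrsf18, the receptor GITR, had 345 to 695 CPM against 104 to 142 CPM (adjusted p = 0.134).

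**Figure D2:**
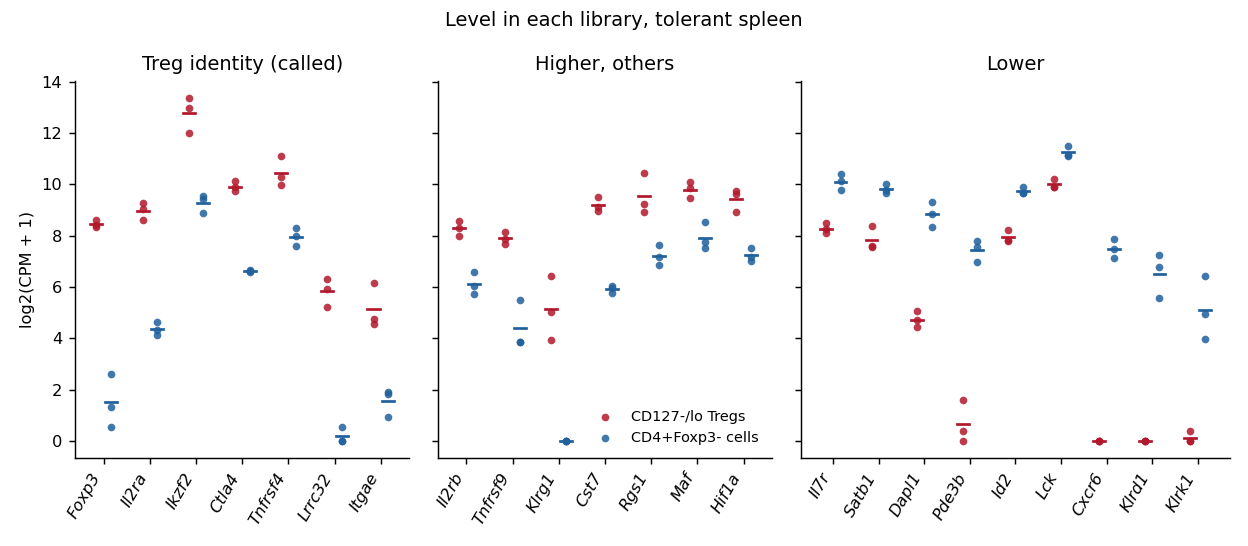
Level of called genes in each library, as log2 of CPM plus 1, with red points for the 3 CD127-/lo Treg libraries, blue points for the 3 CD4+Foxp3- libraries and a bar at the mean of each group. The groups do not overlap in any gene shown, and Klrg1, Cxcr6 and Klrd1 have no count in 1 of the groups.

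Among the chains of the IL-2 receptor, Il2ra and Il2rb were called higher and Il2rg was not called. The beta chain Il2rb was at 255, 373 and 311 CPM in Tregs and 52.0, 95.2 and 64.9 CPM in CD4+Foxp3- cells (log2 fold change 2.14 ± 0.55, adjusted p = 0.0402). The call for Il2rb did not survive the loss of any 1 of the 6 libraries. The common gamma chain Il2rg was at 559 to 696 CPM in Tregs and 677 to 1177 CPM in CD4+Foxp3- cells, with overlap. Of the 15 genes of the receptor and STAT5 pathway, 2 were called higher and none lower, with a median log2 fold change of 0.78. Among the receptors that share the gamma chain, Il7r alone of 5 was called, while Il4ra, Il9r, Il15ra and Il21r were not.

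Receptors of costimulation and inhibition were called in part. Of 12 costimulatory receptors and ligands of the TNF receptor and CD28 families, 2 were called higher, Tnfrsf4 and Tnfrsf9, with a median log2 fold change of 1.34. Groups did not overlap in 11 of them (11.3% of all genes tested), of which Cd27, Cd28, Cd40lg and Tnfsf8 had values below 0 and were not called. Tnfrsf9, or 4-1BB, was at 231, 205 and 280 CPM against 13.4, 44.4 and 13.4 CPM (log2 fold change 3.33 ± 0.83, adjusted p = 0.0301), a call that held only without CD4+Foxp3- replicate 2 when libraries were left out in turn. Icos was at 852 to 1078 CPM against 362 to 429 CPM and was not called (adjusted p = 0.228), and Cd28 was at 502 to 616 CPM against 753 to 804 CPM (adjusted p = 0.885). Of 10 coinhibitory receptors, Ctla4 was the 1 called. Btla, Cd5, Cd96 and Cd200 were not, and Havcr2 had no count in any of the 6 libraries.

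Suppressive and secreted effector molecules gave no call. Of 14 such genes, 13 had a log2 fold change above 0 and 9 had groups without overlap, against 11.3% of all genes tested. The median was 3.33, or 3.03 with genes that lacked a count in 1 group set at their bound, since Il12a, Gzmb and Areg had no count in CD4+Foxp3- cells. Penk, the precursor of enkephalins, came closest, at 275, 68.7 and 86.8 CPM in Tregs and 12.5, 20.7 and 0.773 CPM in CD4+Foxp3- cells (log2 fold change 3.66 ± 0.95, adjusted p = 0.0512). Nt5e, the ectonucleotidase CD73, was at 229 to 382 CPM against 76.2 to 94.2 CPM (adjusted p = 0.318). Lgals1, galectin-1, was at 787 to 896 CPM against 215 to 524 CPM (adjusted p = 0.213).

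Outside the identity list, Klrg1 had the largest increase of a surface receptor. Klrg1, an inhibitory receptor of differentiated effector cells, was at 84.5, 14.3 and 31.1 CPM in Tregs and had no count in CD4+Foxp3- cells, so that it was at least 58.9-fold higher (adjusted p = 4.61e-05). The CD127hi Tregs, which are compared with the same CD4+Foxp3- libraries, held more, at 144, 129 and 187 CPM. Itgae was also higher there, at 115, 194 and 247 CPM, without overlap with the CD127-/lo Tregs in either gene; this was not tested. Rgs1, a regulator of chemokine receptor signalling, was at 1382, 477 and 603 CPM against 115, 143 and 197 CPM (adjusted p = 0.000574, not called without Treg replicate 1). Cst7, the protease inhibitor cystatin F, was at 724, 489 and 551 CPM against 53.1, 65.3 and 60.3 CPM (log2 fold change 3.30 ± 0.61, adjusted p = 0.000167). Cd38, an ectoenzyme that consumes NAD, was at 82.8, 71.2 and 53.6 CPM against 5.70, 0.997 and 6.70 CPM (adjusted p = 0.00683, not called without CD4+Foxp3- replicate 2).

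Other large increases were of genes with no list here. Bicd1, an adaptor of dynein transport, was at 48.9, 60.9 and 167 CPM against 0.228, 1.99 and 2.32 CPM (log2 fold change 5.90 ± 1.10, adjusted p = 0.000202). Atp6v1g3, a subunit of the vacuolar proton pump, was at 33.1, 18.1 and 62.1 CPM in Tregs without a count in CD4+Foxp3- cells (at least 51.4-fold higher, adjusted p = 0.0204), and it was not called without Treg replicate 3 or any 1 of the CD4+Foxp3- libraries. Also called higher were Mctp1, Coro2a and Tktl1, and the guanylate-binding proteins Gbp3 and Gbp2b. Of the 6 fits without 1 library, 5 lost the call of Tktl1, 4 that of Mctp1, 4 that of Coro2a and 3 that of Gbp2b. Gbp3 was at 76.8, 196 and 151 CPM against 7.07, 20.4 and 4.89 CPM (adjusted p = 0.00869) and lost its call without CD4+Foxp3- replicate 1 or 3 or Treg replicate 2. Guanylate-binding protein genes are near copies of each other, so their single values are uncertain.

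Among 15 transcription factors of effector and tissue Tregs, 2 were called higher and 1 lower. Maf, which drives Il10 in several T cell types, was at 697, 1072 and 930 CPM against 182, 364 and 213 CPM (log2 fold change 1.83 ± 0.44, adjusted p = 0.0161). Hif1a, the oxygen-sensing factor, was at 487, 844 and 793 CPM against 127, 144 and 182 CPM (log2 fold change 2.23 ± 0.50, adjusted p = 0.00756). Id2, an inhibitor of E proteins, was at 297, 226 and 218 CPM in Tregs and at 955, 800 and 808 CPM in CD4+Foxp3- cells (log2 fold change -1.79 ± 0.44, adjusted p = 0.0274). The groups did not overlap in any of the 3. The Id2 call ended whichever of the 6 libraries was dropped, and those of Maf and Hif1a ended for 4 of the 6.

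Cell cycle genes gave 1 call. Birc5, survivin, which acts in mitosis, was at 31.9, 90.1 and 74.5 CPM in Tregs and 0.684, 0.498 and 4.12 CPM in CD4+Foxp3- cells (log2 fold change 5.18 ± 1.32, adjusted p = 0.0402). Its call held when either of 2 libraries was dropped and ended for each of the other 4. Of 21 genes of the cycle and of DNA replication, 18 had a log2 fold change above 0, with a median of 1.03, and their summed level was 1492 to 1619 CPM in Tregs and 722 to 867 CPM in CD4+Foxp3- cells. The histone variant gene H2afz was also called higher, at 1658, 1288 and 1101 CPM against 502, 276 and 375 CPM (adjusted p = 0.000256). No gene of glycolysis was called among 15, nor any among 17 immediate early genes.

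Abundant transcripts made up another part of the calls. S100a10, an annexin-binding protein, was at 2790, 1829 and 2148 CPM against 750, 488 and 797 CPM (log2 fold change 1.73 ± 0.29, adjusted p = 1.51e-05). Tmsb4x, the actin-sequestering thymosin beta 4, was at 40144, 24210 and 31022 CPM against 19682, 13143 and 19947 CPM (log2 fold change 0.85 ± 0.14, adjusted p = 3.57e-06). B2m, the light chain of MHC class I, was at 27352, 21322 and 24784 CPM against 15843, 11298 and 14570 CPM (log2 fold change 0.82 ± 0.15, adjusted p = 9.53e-05). In each, every Treg library lay above every CD4+Foxp3- library. AW112010 was at 11985, 9339 and 10002 CPM against 2335, 2631 and 2561 CPM (adjusted p = 2.57e-17), and the interferon-stimulated Ifi27l2a at 6533, 2372 and 2635 CPM against 1312, 484 and 684 CPM (adjusted p = 2.51e-08). None of these 5 was called by the likelihood ratio test, and B2m and Tmsb4x were not called by DESeq2, with the stricter filter, or in fits of fewer groups either. Of 20 interferon-stimulated genes, Ifi27l2a and B2m were the 2 called, and Gbp4 was among the 18 not called. Srgn, Serinc3 and Cox6c were called higher as well, and the Cox6c call ended whichever of the 6 libraries was dropped.

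Genes encoded by the mitochondrial genome were among the calls with small fold changes. Among 12 mitochondrially encoded genes, 3 were called higher, mt-Nd1, mt-Nd2 and mt-Cytb, and all 12 had a log2 fold change above 0, with a median of 0.78, or 0.66 with bounds. The mt-Nd1 level was 9542, 4376 and 6182 CPM in Tregs and 3965, 3461 and 3835 CPM in CD4+Foxp3- cells (adjusted p = 0.00706). Treg replicate 1, the library with the high mitochondrial share, was the highest, and without it none of the 3 was called. Of 83 cytosolic ribosomal protein genes, none was called and 80 had a log2 fold change above 0, with a median of 0.54. The part of RNA quality or library composition in these differences was not tested.

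Conventional CD4 T cell genes known to be low in Tregs held 4 calls. Of 18 such genes, 4 were called lower, Il7r of the sort among them, and 14 were not called, with a median log2 fold change of -1.89. Id3, Bcl2 and Tnf were above 0, at 0.52, 0.47 and 0.39, and not called. Pde3b, a phosphodiesterase that degrades cAMP, was at 0, 2.01 and 0.293 CPM in Tregs and at 124, 223 and 186 CPM in CD4+Foxp3- cells (log2 fold change -7.74 ± 1.17, adjusted p = 5.29e-07). Dapl1 was at 25.1, 20.4 and 32.2 CPM against 460, 321 and 639 CPM (log2 fold change -4.19 ± 0.71, adjusted p = 1.51e-05). Satb1, a chromatin organiser whose repression is needed for Treg function, was at 185, 193 and 328 CPM against 1030, 882 and 800 CPM (log2 fold change -1.94 ± 0.40, adjusted p = 0.00177). The groups did not overlap in Pde3b, Dapl1 or Satb1, and the Satb1 call was lost without Treg replicate 1 or 2. Tcf7 and Lef1, the factors of naive and memory T cells, were at 207 to 329 against 569 to 614 CPM and at 118 to 143 against 337 to 486 CPM, and neither was called (adjusted p = 0.435 and 0.314). The homing receptor Ccr7 was not called either.

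**Figure D3:**
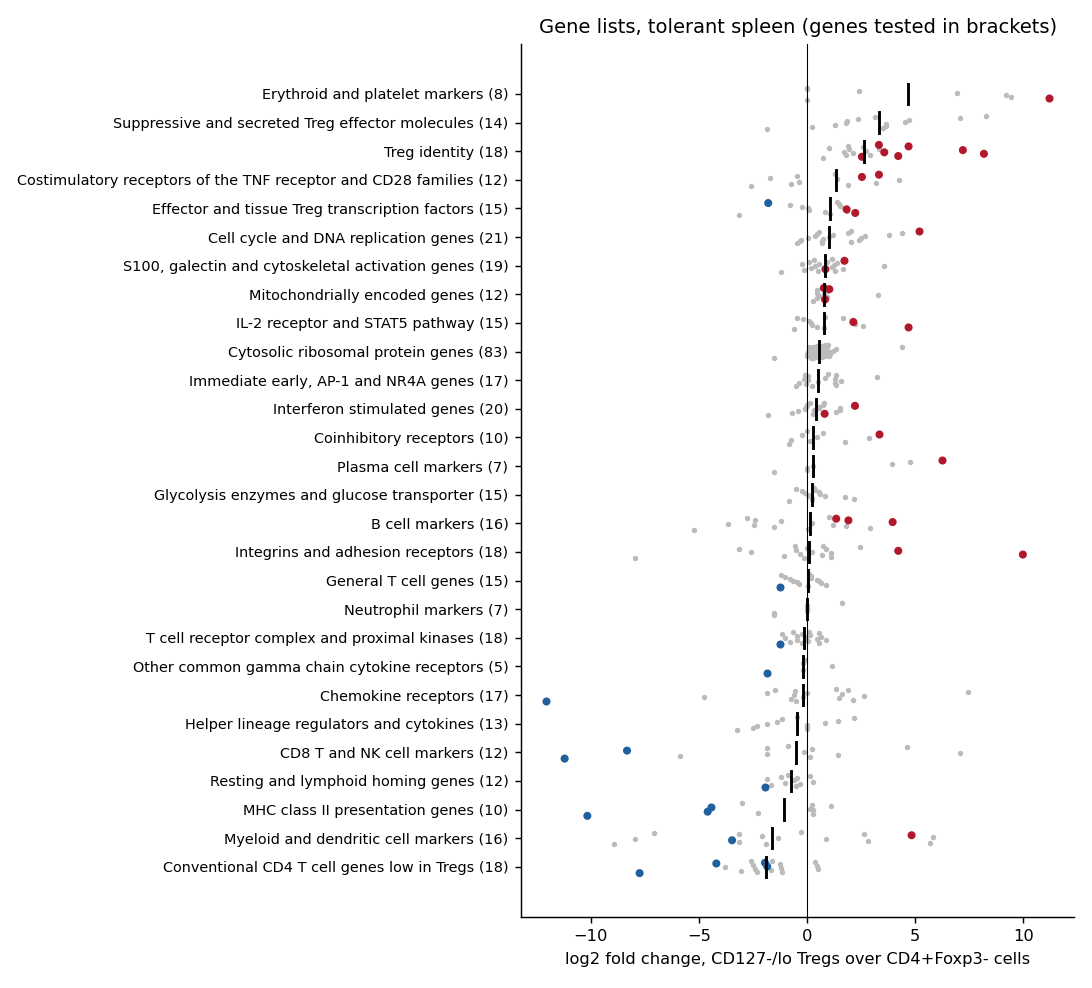
Log2 fold change of CD127-/lo Tregs over CD4+Foxp3- cells for each tested member of the gene lists, with called genes in red or blue, others in grey and a bar at the median of each list. The Treg identity list lies wholly above 0 with a median of 2.65, and the list of conventional CD4 genes has a median of -1.89.

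T cell receptor signalling genes gave 1 call. Lck, the kinase that begins T cell receptor signalling, was at 953, 952 and 1184 CPM in Tregs and 2265, 2901 and 2194 CPM in CD4+Foxp3- cells (log2 fold change -1.25 ± 0.26, adjusted p = 0.00218). It was the only 1 of 18 genes of the receptor complex and its kinases to be called, and the call was lost without CD4+Foxp3- replicate 2. Cd3g and Cd3d, chains of the complex, had log2 fold changes of 0.64 ± 0.30 and 0.57 ± 0.28 and were not called. Txk, a kinase of the Tec family, was also called lower, at 114, 142 and 263 CPM against 726, 553 and 484 CPM (adjusted p = 0.0257), and kept its call only without CD4+Foxp3- replicate 3 or Treg replicate 3.

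The decreases included genes without a single count in CD127-/lo Tregs. Cxcr6, a chemokine receptor of tissue-homing T cells, had no count in any Treg library and was at 137, 230 and 178 CPM in CD4+Foxp3- cells, which makes it at least 220-fold lower in Tregs (adjusted p = 9.34e-08). Klrd1, the receptor chain CD94, had no count in Tregs and 45.8, 109 and 149 CPM in CD4+Foxp3- cells (at least 122-fold lower, adjusted p = 1.25e-10). Klrk1, or NKG2D, was at 0, 0 and 0.293 CPM against 14.6, 85.7 and 29.9 CPM, a ratio of summed counts of 466 with an interval from 83.3 to 18443 (adjusted p = 0.000581). Spp1, osteopontin, had no count in Tregs and 46.5, 42.4 and 64.4 CPM in CD4+Foxp3- cells (adjusted p = 0.0137), and leaving out any 1 of the Treg libraries ended its call. Atp8b4, a phospholipid flippase, was at 0, 0.252 and 0 CPM against 56.5, 57.8 and 55.6 CPM (adjusted p = 0.000855). The other chemokine receptors gave no call among 16. Cxcr3 was at 107 to 169 CPM in Tregs and 39.1 to 51.1 CPM in CD4+Foxp3- cells (adjusted p = 0.760). The study lists Cxcr6 and Klrk1 as raised, or tending to be, in lymph node CD127hi Tregs and graft Tregs over naive or CD127-/lo Tregs.

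The markers of CD8 T and natural killer cells were summed beside these values. Their 12 genes held 191 to 401 CPM in Tregs and 340 to 608 CPM in CD4+Foxp3- cells. Klrd1 and Klrk1 were the 2 called, Cd8a had no count in Tregs, and Nkg7, Ccl5, Cd8b1 and Klrb1c were not called. The part of CD8 T or natural killer cells in the result was not tested.

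MHC class II genes of the classical pairs were lower in CD127-/lo Tregs. H2-Ab1 had no count in any Treg library and was at 74.3, 27.2 and 44.5 CPM in CD4+Foxp3- cells, at least 58.8-fold lower (adjusted p = 4.69e-12). H2-Aa, its partner chain, was at 1.13, 7.30 and 0 CPM against 55.2, 68.3 and 85.7 CPM (log2 fold change -4.59 ± 0.74, adjusted p = 3.4e-06). H2-Eb1 was at 0, 0 and 4.98 CPM against 52.4, 11 and 43.5 CPM (log2 fold change -4.41 ± 0.84, adjusted p = 0.000278). No Treg library reached the lowest CD4+Foxp3- library in these 3. H2-Ab1 was called by both the likelihood ratio test and DESeq2, while H2-Aa and H2-Eb1 were not. Of 10 presentation genes, 5 had groups without overlap, against 11.3% of all genes tested, and 1 of these, H2-Ob, was above 0. The other 7 were not called. Among them, the invariant chain Cd74 was at 104 to 332 CPM in Tregs and 107 to 199 CPM in CD4+Foxp3- cells. H2-DMa was at 52.3 to 88.4 against 51.8 to 66.6 CPM. The study lists H2-Ab1 as raised, or tending to be, in CD127hi and graft Tregs over naive or CD127-/lo Tregs.

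Markers of myeloid and dendritic cells gave 1 call in each direction. Of 16, 6 had a log2 fold change above 0, with a median of -1.62, or -0.81 with bounds. Groups did not overlap in 8 of the 16, against 11.3% of all genes tested. The 16 myeloid and dendritic cell genes summed to 272 to 659 CPM in Tregs and 299 to 363 CPM in CD4+Foxp3- cells. In the Treg libraries Cst3, joined by Lyz2 in replicate 1, held most of it. Lyz2, lysozyme of macrophages, was called higher at 287, 0.503 and 51.6 CPM against 0, 0 and 11.8 CPM, but the groups overlapped and the call was lost without Treg replicate 1. Ly6c2 was called lower at 10.7, 8.05 and 0 CPM against 73.6, 72.5 and 62.6 CPM (adjusted p = 0.0217, not called without Treg replicate 2 or 3). Members that were not called lay on both sides. Fcer1g, Tyrobp and Zbtb46 averaged 4.50, 7.93 and 1.64 CPM in Tregs and 19.2, 29.3 and 14.9 CPM in CD4+Foxp3- cells. Itgam, Itgax, Flt3 and Siglech had no count in Tregs and averaged 0.341, 10.5, 5.65 and 20.7 CPM in CD4+Foxp3- cells. C1qb had no count in CD4+Foxp3- cells, and Csf1r and Cst3 averaged 10.3 and 257 CPM in Tregs and 0.152 and 142 CPM in CD4+Foxp3- cells. Also called lower, at low levels, were Siglecg, Ly86, Bcl11a, Blnk, Rnase6, Ctsh, Iglc3 and Gm19951. Of the 6 fits without 1 library, 4 lost Blnk, 4 Rnase6, 3 Ctsh, 3 Iglc3 and 2 Gm19951, while Siglecg, Ly86 and Bcl11a kept their calls in each. Siglecg, an inhibitory lectin of B cells, had no count in Tregs and 10.5, 12 and 8.24 CPM in CD4+Foxp3- cells (adjusted p = 6.36e-06).

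Of the immunoglobulin genes, Ighm and Igkc were called higher in Tregs, in contrast to Iglc3. Ighm was at 1499, 1442 and 1430 CPM in Tregs and 570, 491 and 654 CPM in CD4+Foxp3- cells (log2 fold change 1.35 ± 0.29, adjusted p = 0.00254). Igkc was at 150, 103 and 113 CPM against 33.5, 42.1 and 21.1 CPM (adjusted p = 0.00177), and Cd79b, of the B cell receptor, at 28.0, 22.6 and 42.2 CPM against 0, 0 and 5.92 CPM (adjusted p = 0.00682, not called without CD4+Foxp3- replicate 1). Treg libraries were above CD4+Foxp3- libraries throughout in these 3. None of the 3 was called by both the likelihood ratio test and DESeq2. The 16 B cell markers summed to 1756 to 2065 CPM in Tregs and 689 to 915 CPM in CD4+Foxp3- cells, most of it Ighm. Cd22 was at 7.63, 26.9 and 23.2 CPM in Tregs and 0, 5.98 and 22.9 CPM in CD4+Foxp3- cells, with overlap. The defining markers Pax5, Fcrla and Blk had no count in any Treg library and averaged only 0.497, 1.54 and 0.248 CPM in CD4+Foxp3- cells. The part of B cells in these differences was not tested.

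Most hemoglobin counts came from 1 library. Hbb-bs was at 0, 0.252 and 303 CPM in Tregs without a count in CD4+Foxp3- cells (adjusted p = 0.000308), and without Treg replicate 3 it was not called. The 8 erythroid and platelet genes tested summed to 0.755 to 573 CPM in Tregs and 0.498 to 1.37 CPM in CD4+Foxp3- cells. Wfdc17 was also uneven, at 13.6, 0 and 339 CPM in Tregs without a count in CD4+Foxp3- cells, and Jchain at 9.32, 0.252 and 0 CPM. Neutrophil markers were nearly absent, at 0.252 CPM at most for the sum of 7 genes.

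**Figure D4:**
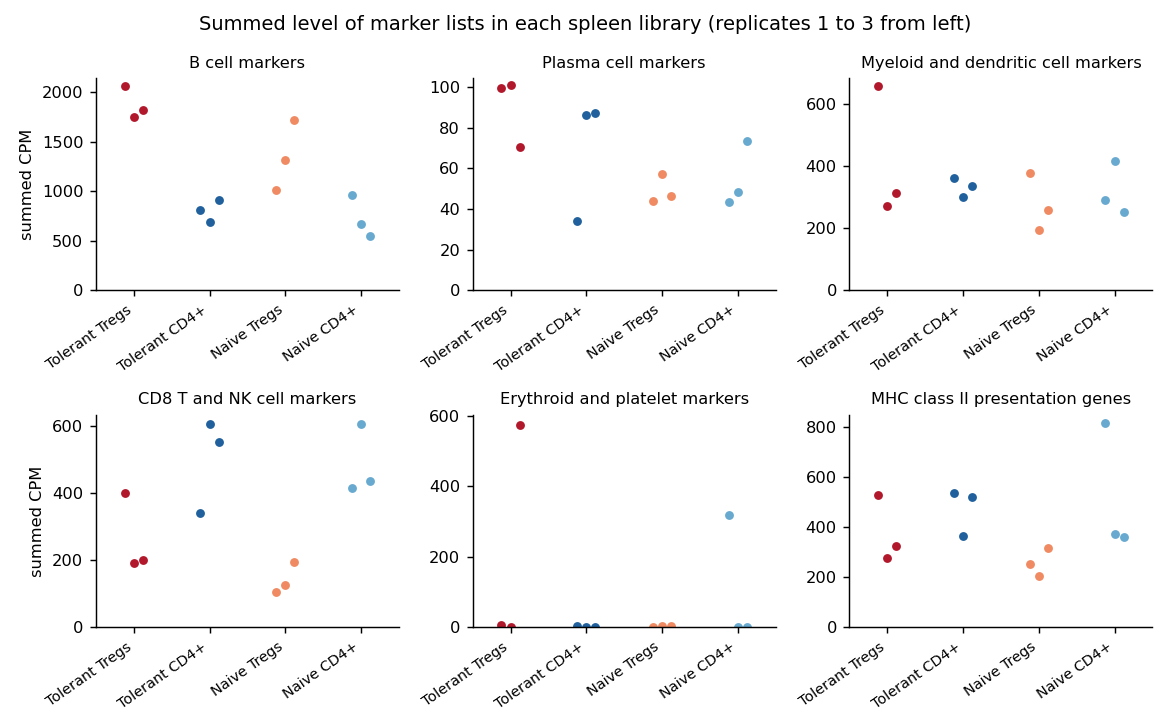
Summed CPM of the marker lists of other cell types in each library, with replicates 1 to 3 of each group from left to right. The B cell list, mostly Ighm, is higher in all 3 CD127-/lo Treg libraries, and the erythroid list reaches 573 CPM in 1 of them.

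The same contrast in naive spleen shares no library with that in tolerant spleen. There, 67 genes were called (0.264% of those tested), 40 higher and 27 lower in Tregs. The 2 contrasts had 30 called genes in common, 41.7% of the calls in tolerant and 44.8% of those in naive spleen. Of these, 15 were higher in both, 14 lower in both and 1, Tmsb4x, was called in opposite directions. Among the 72 genes called in tolerant spleen, 63 had the same sign in naive spleen. The naive spleens came from too few mice for separate pools, so the naive libraries may not be independent. The naive Tregs were not sorted on CD127, so that tolerance and gate cannot be told apart in what follows.

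Of the 18 Treg identity genes, 7 were called in tolerant and 10 in naive spleen. Foxp3 had a log2 fold change of 7.21 ± 0.73 in tolerant and 7.01 ± 0.73 in naive spleen, and Ctla4 of 3.32 ± 0.52 and 2.71 ± 0.51. For the decreases, Dapl1 had -4.19 ± 0.71 and -4.63 ± 0.73 and Satb1 had -1.94 ± 0.40 and -1.91 ± 0.40. Ighm was called higher in naive Tregs too, with a log2 fold change of 1.47 ± 0.29 (adjusted p = 0.000634).

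The difference between the contrasts was tested as an interaction and called for 28 genes (0.110% of those tested), 20 above 0 and 8 below. These calls depended on the fit: edgeR called none with a filter of 10 counts in 3 libraries (776 at an unadjusted p under 0.05) and none on spleen and graft libraries alone (1427), and DESeq2 called 60, of which 22 were above 0 and 38 below. The Il2ra contrast was smaller in tolerant spleen, by -4.41 ± 0.83 on the log2 scale (adjusted p = 0.000934). Tregs had 528, 390 and 609 CPM of Il2ra in tolerant and 444, 285 and 466 CPM in naive mice, which overlap. In CD4+Foxp3- cells, the level was 18.9, 23.7 and 16.2 CPM in tolerant and 1.31, 0.317 and 0.392 CPM in naive mice, which do not. The naive values lie near the limit of 3 counts, 0.95 to 1.18 CPM there, so that the fitted size is uncertain. Penk and Fgl2 were also called. Penk had no count in naive CD4+Foxp3- cells and 12.5, 20.7 and 0.773 CPM in tolerant ones, and Fgl2 had 0.328, 0 and 0 CPM and 0.684, 19.2 and 11.8 CPM. In each, 1 tolerant library was near the limit of 3 counts, and of the 12 fits without 1 library, 7 lost the call of Penk and 8 that of Fgl2.

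For Ikzf2 the contrast was larger in tolerant spleen, by 1.51 ± 0.31 (adjusted p = 0.00482). Naive Tregs held 5882, 3819 and 4019 CPM and naive CD4+Foxp3- cells 1657, 470 and 1156 CPM. Replicate 3 of the CD127-/lo Tregs decided this call, which was lost without it. Cxcr6 differed as well (adjusted p = 0.00396), with 32.5, 15.6 and 13.9 CPM in naive Tregs where the CD127-/lo Tregs of tolerant mice had no count. H2-Ab1 differed likewise, with 14, 0.677 and 4.29 CPM in naive Tregs (adjusted p = 0.00676). Tmsb4x differed by 1.5 ± 0.19 (adjusted p = 6.86e-09), with naive Tregs at 21814, 16508 and 21491 CPM and naive CD4+Foxp3- cells at 24235, 37431 and 31765 CPM.

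**Figure D5:**
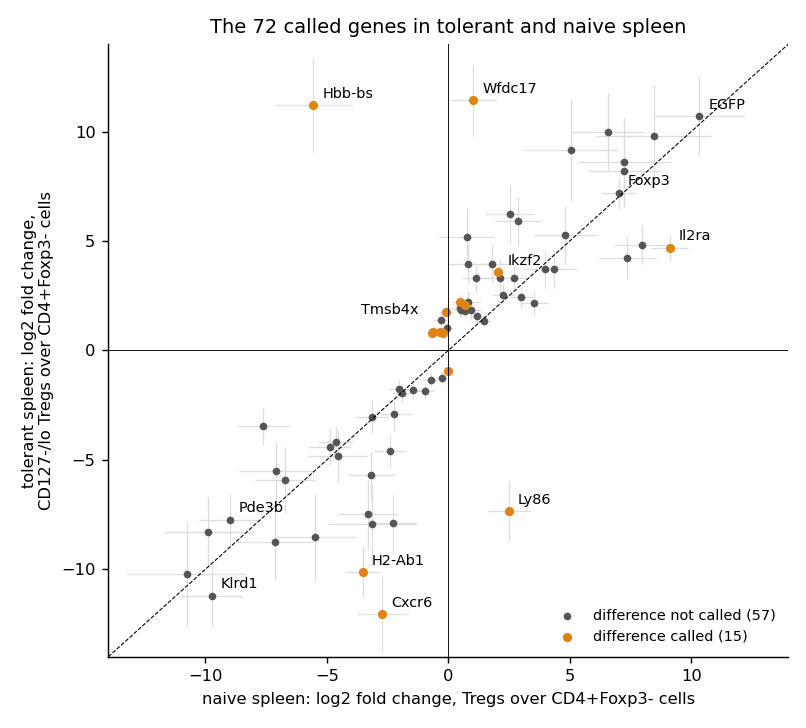
The 72 genes called in tolerant spleen, with the log2 fold change of Tregs over CD4+Foxp3- cells in naive spleen on the x axis and in tolerant spleen on the y axis, bars for 1 SE and a dashed line of equal values. The 15 orange genes are those whose difference between the contrasts was called, and Il2ra lies below the line with 4.70 in tolerant and 9.10 in naive spleen.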

How the data were processed

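Bulk RNA-Seq libraries of sorted cells were made with SMART-Seq v4 and Nextera XT, with the NextSeq 500 used for spleen and graft. According to the methods, the authors used Trim Galore for trimming, STAR for alignment to mm10 plus EGFP, and HTSeq for counting, although the file layout is that of STAR. The deposited values are whole, unnormalized counts of read pairs, of which the column without regard to strand was used, so that overlapping and antisense genes cannot be told apart. The 4 opening totals of reads outside genes were left out of tests. The ComBat-Seq step of the study was not applied.

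A gene was tested if any of the 33 libraries reached 1 CPM, which kept 25347 of 31054. TMM factors and a negative binomial model with 1 mean for each of 11 groups were fitted over all 33 libraries in edgeR 4.0.16 (R 4.3.3), and contrasts were tested by quasi-likelihood with Benjamini-Hochberg adjustment at 0.05. The contrast of the 6 libraries, that of naive spleen and their interaction were tested. Bounds used 3 counts per library, and ratios with 1 to 3 counts in a group have exact 95% intervals. With 3 libraries against 3, no exact permutation test can reach a p under 0.1, so none is given. The fit was tested on simulated data. The alternatives were edgeR's likelihood ratio test, DESeq2 1.42.0, RLE factors, 2 other filters, 2 smaller sets of libraries, a replicate block and omission of single libraries.

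The members and gene lists were chosen with earlier results of these data known. Named genes were Foxp3, EGFP, Il2ra, Il7r and Cd4, in each direction up to 15 called genes of largest fold change without overlap and at least 10 CPM in the higher group, every called list member, up to 4 uncalled members a list with the highest CPM, and called interaction genes. Other called genes (such as Cst7, Rgs1, H2afz, Txk, Siglecg) and uncalled members named for having no count were chosen after their values were seen.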

Additional observations from a re-analysis of the deposited data

Results flagged for a closer look

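The difference between Tregs and CD4+Foxp3- cells was larger or smaller in tolerant than in naive spleen for 28 genes by the interaction test of edgeR, each value below being the log2 contrast in tolerant minus that in naive spleen. The naive Tregs were not gated on CD127. Smaller in tolerant spleen were Il2ra (-4.41), Penk (-7.38) and Fgl2 (-6.40). Further below 0 were Cxcr6 (-9.34), H2-Ab1 (-6.62), Ly86 (-9.83), Iglv2 (-13.31) and Malat1 (-0.90).

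Above 0 were Ikzf2 (1.51), B2m (1.05), Tmsb4x (1.5), S100a10 (1.82), Cd52 (1.39), Ppia (1.57), Ifi27l2a (1.76) and AW112010 (1.37). The ribosomal protein genes Rps27 (1.38), Rps19 (1.48) and Rps15a (1.78) and the mitochondrial genes mt-Nd1 (1.19), mt-Co1 (1.11) and mt-Cytb (1.43) were above 0 as well. Genes at or near 0 in many libraries were Hbb-bt (17.83), Hbb-bs (16.76), Hba-a1 (15.91), Shcbp1 (11.25), Wfdc17 (10.41) and Gzma (8.41). The fitted sizes of these 6 and of Il2ra, Penk, Fgl2, Cxcr6, H2-Ab1, Ly86 and Iglv2 depend on groups at or near 0 counts and are no bounds.

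Dropping 1 of the 12 libraries at a time, 9 of the 28 genes were called every time, namely Il2ra, B2m, Tmsb4x, Cd52, Cxcr6, Ly86, H2-Ab1, AW112010 and mt-Cytb. Without replicate 1 of the CD127-/lo Tregs, 17 genes were called, and 11 of the 28 were lost, among them Rps27, Rps19, Rps15a, S100a10, Ppia, mt-Nd1 and mt-Co1. That library had 4.35% of its counts on mitochondrial genes, and its part in these differences beyond the lost calls was not tested. In a fit of the 12 libraries alone, 2 of the 28 were called, Il2ra and Cxcr6. With edgeR, a filter of 10 counts in 3 libraries and a fit of spleen and graft libraries alone gave 0 calls, with 776 and 1427 genes at an unadjusted p under 0.05, and DESeq2 called 60, with 22 above 0 and 38 below.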

How the results depend on the processing

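None of the 72 genes called reversed under an alternative that tested it (71 for DESeq2). For the 72 genes called between CD127-/lo Tregs and CD4+Foxp3- cells, the likelihood ratio test called 38 (31 shared), DESeq2 222 (51 shared), a stricter filter of 10 counts in 3 libraries 28 (26 shared) and a fit of the 6 libraries alone 342 (57 shared). RLE factors gave 77 genes and no filter 82, each with all 72, and spleen and graft libraries alone 88 (51 shared), with 51.1% of calls higher in place of 59.7%. Leaving out 1 library gave 50 to 60. All 14 alternatives called 13 genes, namely Foxp3, EGFP, Il2ra, Ikzf2, Ctla4, Lrrc32, Cst7, Bicd1, Cxcr6, Klrd1, Atp8b4, Pde3b and H2-Ab1. For the 28 genes that differed between tolerant and naive spleen, the likelihood ratio test called 11, DESeq2 60 (22 above 0), the compared libraries alone 2, and leaving out 1 library 17 to 37. The stricter filter and the spleen and graft libraries alone called 0, with 776 and 1427 genes at an unadjusted p under 0.05 by edgeR. The naive contrast of 67 genes became 185 with DESeq2 and 35 with the stricter filter, and 45 to 72 with 1 library left out. The cause was not tested.

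Whether the replicate numbers pair the libraries was left undecided by the deviations from the group means. In tolerant spleen these correlated at 0.00576 to 0.0755 for equal numbers and at -0.0837 to 0.0173 for unequal numbers. In naive spleen the values were -0.00305 to 0.0942 and -0.104 to 0.0711. All were weak, and not every library correlated best with its own number. With the replicate number as a block, 87 genes were called, including all 72, against 34 for the difference between spleens and 97 for the naive contrast. Differences near the limit of 3 counts, 0.684 to 0.879 CPM, were not detectable at this depth.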

Other observations

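Hemoglobin counts stood in single libraries of several groups of the spleen. Hbb-bs, a beta globin gene, was at 303 CPM in CD127-/lo Treg replicate 3, at 464 CPM in CD127hi Treg replicate 3 and at 177 CPM in naive CD4+Foxp3- replicate 1. The other libraries of these groups held 0 to 0.425 CPM. Hbb-bt and Hba-a1 were highest in the same 3 libraries, at 83.0, 188 and 43.6 CPM and at 102, 175 and 64.6 CPM. Globin genes are near copies of each other, so their single values are uncertain.

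Wfdc17 also varied within groups, at 71.5, 311 and 38.5 CPM in CD127hi Tregs, 44.9, 0 and 2.53 CPM in naive Tregs and 5.25, 18.1 and 0 CPM in naive CD4+Foxp3- cells.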
